A study of Mus musculus with 11 samples.

Results

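Livers of mice labelled β-catΔEx3:Myc were compared with livers of mice labelled β-catΔEx3, across every gene on the array. The arrays were chosen by the genotype label alone, which gave 4 β-catΔEx3:Myc arrays and 3 β-catΔEx3 arrays, 7 of the 11 in the study. The 4 WT arrays were not used. Both groups carry the shortened β-catenin, so the label that separates them is Myc, and the question was what differs in the liver when Myc is added to mutant β-catenin. All 7 mice were male and of one hybrid background, mostly B6SJL with a smaller share of 129S6. They were 22 to 40 days old, with a single age given only for β-catΔEx3:Myc replicate 4 (29 days) and β-catΔEx3 replicate 3 (30 days). The labels do not give the promoter or the recombinase behind either change, nor which piece of each liver was sampled. The series' design speaks of livers bearing tumours and counts the last 4 animals only as c-Myc, so the double genotype rests on the sample labels.

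β-catenin carries the Wnt signal into the nucleus, and the stretch encoded by exon 3 holds the sites that mark the protein for destruction, so its loss stabilises β-catenin. Myc binds DNA with its partner Max at the E-box, CACGTG, and is known for driving growth, ribosome production and cell division. Both are tied to hepatoblastoma, a liver tumour of early childhood whose cells resemble the fetal hepatoblast. The fetal liver is also the site where blood cells, platelets included, are made before the bone marrow takes over.

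Each liver was hybridised to its own 1-colour Agilent mouse array, on which the brightness of a probe reports the level of a transcript. Levels are given as log2 of the processed signal relative to the 75th percentile of that array, and differences as log2 fold change of β-catΔEx3:Myc over β-catΔEx3 with the standard error. Of 21310 items tested, 13490 were genes with a symbol and 7820 were transcripts or loci without one. An item was called when limma's adjusted p, by the Benjamini-Hochberg method over all items, was under 0.05. The p-values measure the spread between these samples, and the labels do not say more about how they relate. Array brightness was even: the 75th percentile ran from 275 to 354 intensity units, between 49% and 53.4% of probes passed the scanner's background call, and saturation was absent (0 spots). All 8 hepatocyte markers examined, from Alb to Ahsg, were well above background on all 7 arrays, with differences between -0.53 and 0.38.

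The arrays lay on 3 slides. Slide 2 held replicates 1 and 2 of both groups, slide 4 held β-catΔEx3:Myc replicate 4 and β-catΔEx3 replicate 3, and slide 3 held only β-catΔEx3:Myc replicate 3. Replicate 3 of the Myc group stood apart from the other 3. On the first principal component, which took 28.8% of the variance, it lay at 10.6, the other β-catΔEx3:Myc arrays at -33.8, -28.5 and -69.5, and the β-catΔEx3 arrays at 28, 40.4 and 52.8. It is the one array of the comparison without a partner on its slide, so the slide and the liver cannot be told apart. Results that turn on it are given with and without it. As it lay towards β-catΔEx3 in these same data, leaving it out favours calls in genes where it does so. Adjusted p-values without it describe the other arrays and are not further support. A fit with slide as a block takes the group difference from slides 2 and 4 alone, and replicate 3 then adds nothing to it. That fit is therefore not a check apart from leaving replicate 3 out.

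Myc itself, the gene the label adds, was examined first. Its level was 4.65, 3.13, 2.55 and 4.98 on β-catΔEx3:Myc replicates 1 to 4, against 2.44, 1.39 and 2.08 on β-catΔEx3 replicates 1 to 3. The groups did not overlap, but replicate 3 of the Myc group lay only just above the highest β-catΔEx3 array. The difference was 1.86 ± 0.61 and was not called (adjusted p = 0.429). Within slide 2 it was 1.97 and within slide 4 it was 2.90. The files do not tell whether the single Myc probe reports the Myc of the model as well as the mouse's own. Ctnnb1, which encodes β-catenin, had levels of 3.58, 3.38, 3.49 and 3.15 against 3.31, 3.38 and 3.54, a difference of -0.01 ± 0.17. That sign is not a direction: it turned positive under several scalings. Nfe2l2, the gene of the oxidative stress factor Nrf2, had a difference of -0.16 ± 0.28 with overlapping groups.

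Few items passed the test. Of the 21310 items, 6 were higher in β-catΔEx3:Myc (0.0282%) and 3 were lower (0.0141%). The higher ones were Gp1ba, Gp9 and Gp5, which encode parts of the platelet receptor for von Willebrand factor, Rgs18, a regulator of G-protein signalling made in megakaryocytes and platelets, the zinc finger gene Zfp949, and an unnamed locus. The lower ones were Serpina3i, a member of a cluster of secreted protease inhibitors, Igf1, the growth factor that the liver secretes under growth hormone, and Slc28a1, a transporter that takes nucleosides into the cell. All 9 had the same direction within slide 2 and within slide 4. That follows from groups that do not overlap, so it is not further support. At an unadjusted p under 0.05 there were 1830 items (8.59%).

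**Figure D1:**
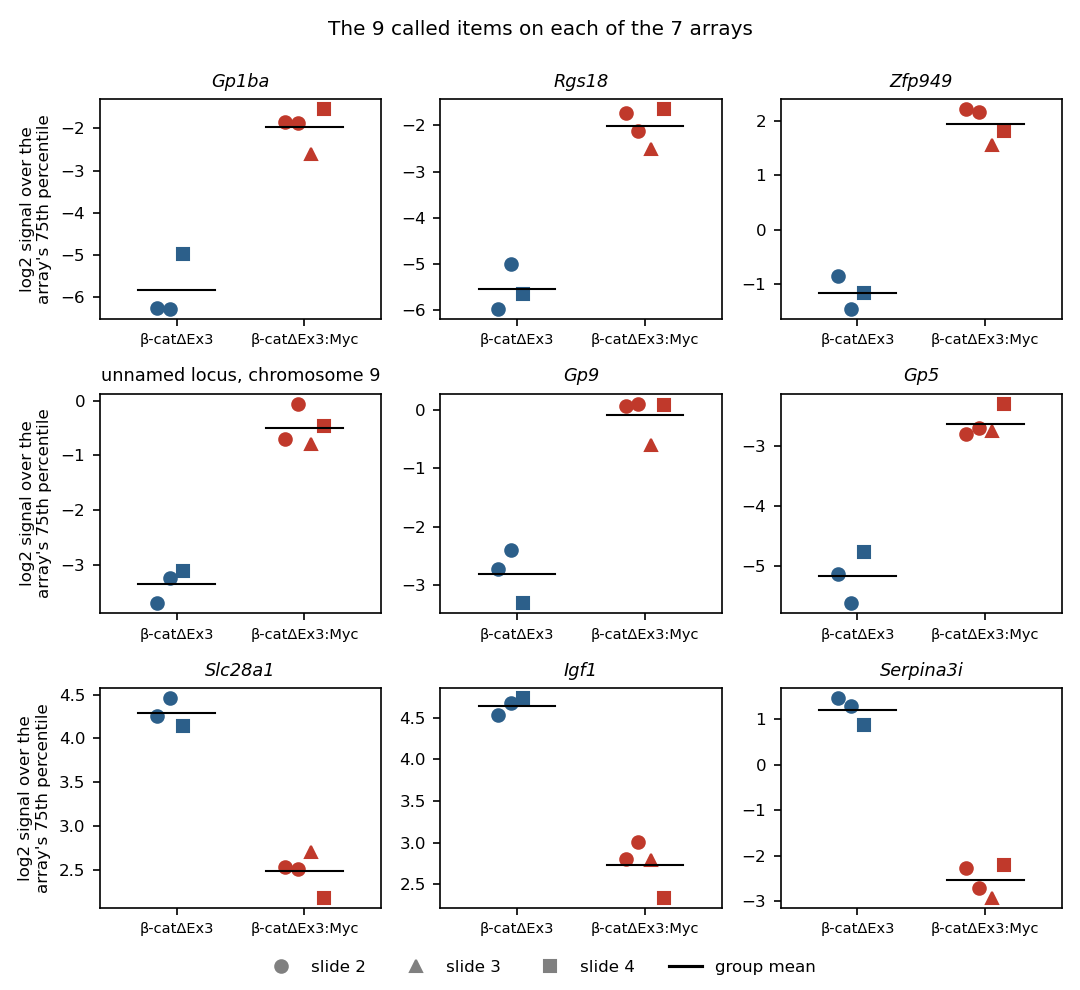
Level of each of the 9 called items on each array, as log2 processed signal relative to the array's 75th percentile (vertical axes, a separate scale per panel), for the 3 β-catΔEx3 arrays (blue) and the 4 β-catΔEx3:Myc arrays (red). Symbols mark the slide and black lines the group means. No panel shows overlap between the groups, and the lone slide 3 array (triangle) sits with its own group in all 9.

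The count of calls depended on single livers. Leaving out β-catΔEx3:Myc replicate 2 left 0 calls in either direction, with 1381 items at an unadjusted p under 0.05, and leaving out replicate 4 left 0 higher and 1 lower. Without replicate 1 there were 2 higher and 3 lower. Without replicate 3 there were 35 higher (0.164%) and 5 lower (0.0235%), and these 40 included all 9. Among the controls, the counts were 1 higher and 1 lower without β-catΔEx3 replicate 3, 4 and 1 without replicate 2, and 5 and 2 without replicate 1. With slide as a block, 8 items were higher (0.0375%) and 1 was lower (0.00469%). Only 3 of those 9 were among the calls without the block, namely Gp1ba, Zfp949 and Serpina3i.

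The platelet genes were the group with most calls, though these calls depended on the settings, as given below. Platelets shed from megakaryocytes carry the Gp1b-IX-V complex on their surface, and Gp1ba, Gp9 and Gp5 encode the parts of it that were called. Their promoters are shown because these genes were higher together. The sequences are the 250 bases before the transcription start, from RefSeq on GRCm38.p6, written 5′ to 3′ on the gene's strand. Capitals mark GATAA or its reverse complement TTATC, the core letters read by GATA factors. The motif was chosen after the calls were seen. The Gp1ba window is chr11:70638872-70639121 on the plus strand, that of Gp9 is chr6:87777820-87778069 on the plus strand, and that of Gp5 is chr16:30310782-30311031 on the minus strand.
Gp1ba: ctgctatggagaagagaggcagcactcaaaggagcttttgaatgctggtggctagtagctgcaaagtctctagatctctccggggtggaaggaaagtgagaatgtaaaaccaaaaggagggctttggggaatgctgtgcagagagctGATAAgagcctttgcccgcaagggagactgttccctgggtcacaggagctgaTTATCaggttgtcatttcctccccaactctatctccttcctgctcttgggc
Gp9: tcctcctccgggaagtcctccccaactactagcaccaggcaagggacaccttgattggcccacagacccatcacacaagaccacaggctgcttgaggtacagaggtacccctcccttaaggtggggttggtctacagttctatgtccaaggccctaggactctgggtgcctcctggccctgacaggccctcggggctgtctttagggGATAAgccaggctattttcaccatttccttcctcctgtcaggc
Gp5: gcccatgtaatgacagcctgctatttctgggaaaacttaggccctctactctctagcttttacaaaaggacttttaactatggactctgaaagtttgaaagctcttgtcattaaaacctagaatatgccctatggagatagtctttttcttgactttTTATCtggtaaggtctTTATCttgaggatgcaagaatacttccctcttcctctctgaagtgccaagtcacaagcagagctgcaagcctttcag

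Gp1ba and Gp5 hold 2 matches each and Gp9 holds 1. The motif is common. It stood in the same window of 19% of the 10730 measured genes with a promoter in the table, on either strand, and in 5 of the 11 megakaryocyte and platelet genes that had one (45.5%). These 11 include Gp1ba, Gp9 and Gp5, after whose calls the motif was chosen, so that share was partly fixed in advance. Among the others, Gp6 held 1 match, and Pf4, Ppbp, Treml1, Itga2b and Gp1bb held none. The Myc E-box CACGTG was in none of the 3 windows shown, and in 9.6% of the measured genes. Among genes with a symbol whose groups did not overlap and differed by at least 2-fold, the E-box was in 4.7% of the 127 higher ones and 5.9% of the 187 lower ones. GATAA was in 37.0% and 22.5% of the same genes. A match describes letters in the window and is not evidence that a factor binds there.

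Gp1ba encodes the chain that grips von Willebrand factor. Its level was -1.85, -1.88, -2.62 and -1.55 on the β-catΔEx3:Myc arrays, against -6.26, -6.28 and -4.99 on the β-catΔEx3 arrays. None of the β-catΔEx3 arrays was well above background for it, so the fold is a lower bound, at least 7.05-fold higher. The bound sets the mean of the brighter group against the lowest signal that counted as above background on each dimmer array, or the probe's own signal if that was higher. The measured difference was 3.87 ± 0.39 (adjusted p = 0.0374).

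Gp9, the small chain that the receptor needs to reach the surface, had levels of 0.07, 0.11, -0.60 and 0.08 against -2.73, -2.41 and -3.31. The lowest of its 4 Myc arrays was replicate 3. It was 6.64-fold higher (difference 2.73 ± 0.28, adjusted p = 0.0374). Gp5, which joins the complex and is cut by thrombin, had levels of -2.81, -2.69, -2.75 and -2.30 against -5.13, -5.62 and -4.77. No β-catΔEx3 array was well above background for Gp5, which was at least 4.45-fold higher (measured difference 2.54 ± 0.24, adjusted p = 0.0365). On all 4 Myc arrays Gp5 lay in a narrow band, replicate 3 included.

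Rgs18 had levels of -1.73, -2.12, -2.52 and -1.65 against -5.97, -5.00 and -5.66, and no β-catΔEx3 array was well above background. It was at least 6.90-fold higher (measured difference 3.54 ± 0.31, adjusted p = 0.0209). With slide as a block, of the 4 platelet genes called, Gp1ba kept its call (4.08, adjusted p = 0.0463). Gp9, Gp5 and Rgs18 had adjusted p-values of 0.0558, 0.0558 and 0.0606 in that fit, with differences of 2.90, 2.58 and 3.71. Gp1ba, Gp9 and Gp5 were not called with no filter on dim probes, with the authors' matrix or with normexp, another background correction. Rgs18 was not called with normexp either. When single arrays were left out, Gp9 and Gp5 were called only without Myc replicate 3.

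The wider list of megakaryocyte and platelet genes held 15 measured members, and their median difference was 1.79, or 1.56 with the 4 members that were below background in β-catΔEx3 set to their bound. The median over all items was 0. In 10 of the 15 the groups did not overlap, with Myc higher, where 3.52% of all items did so, and in none were they apart the other way. Beside the 3 called receptor genes, these were Ppbp, Treml1, Pf4, Itga2b, Thbs1, Gp1bb and Gp6. Of the 10, Gp1ba, Gp5, Itga2b and Gp6 passed the background filter through the Myc arrays alone. The filter itself thus favoured their place in this count. Ppbp and Pf4 encode chemokines stored in platelet granules. Pf4 had levels of 3.16, 2.89, 2.48 and 3.31 against -0.08, 1.08 and 0.89, 5.03-fold apart and not called (2.33 ± 0.33, adjusted p = 0.117). Ppbp had levels of 1.41, 0.85, 0.57 and 1.43 against -4.79, -1.79 and -2.32, with 2 of the 3 β-catΔEx3 arrays above background (4.03 ± 0.67, adjusted p = 0.153). In both genes every Myc array lay above every β-catΔEx3 array, and for Ppbp the β-catΔEx3 arrays themselves were spread widely.

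Treml1, a receptor of platelet granules, had a difference of 2.90 ± 0.46 (adjusted p = 0.153). Itga2b, the integrin chain that binds fibrinogen, was at least 2.86-fold higher by its bound, and Gp6, the collagen receptor, at least 2.14-fold, neither of them called. The other 5 members overlapped between the groups. They include Vwf, which endothelium also makes (0.04 ± 0.29), and whose sign depended on the scaling. Thus not all genes of the lineage differed. The summed level of the 15 genes, relative to the 75th percentile of each array, was 18.4 to 27.7 on the Myc arrays and 11.2 to 14.1 on the β-catΔEx3 arrays. In whole liver, more cells of a type and more RNA per cell cannot be told apart.

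**Figure D2:**
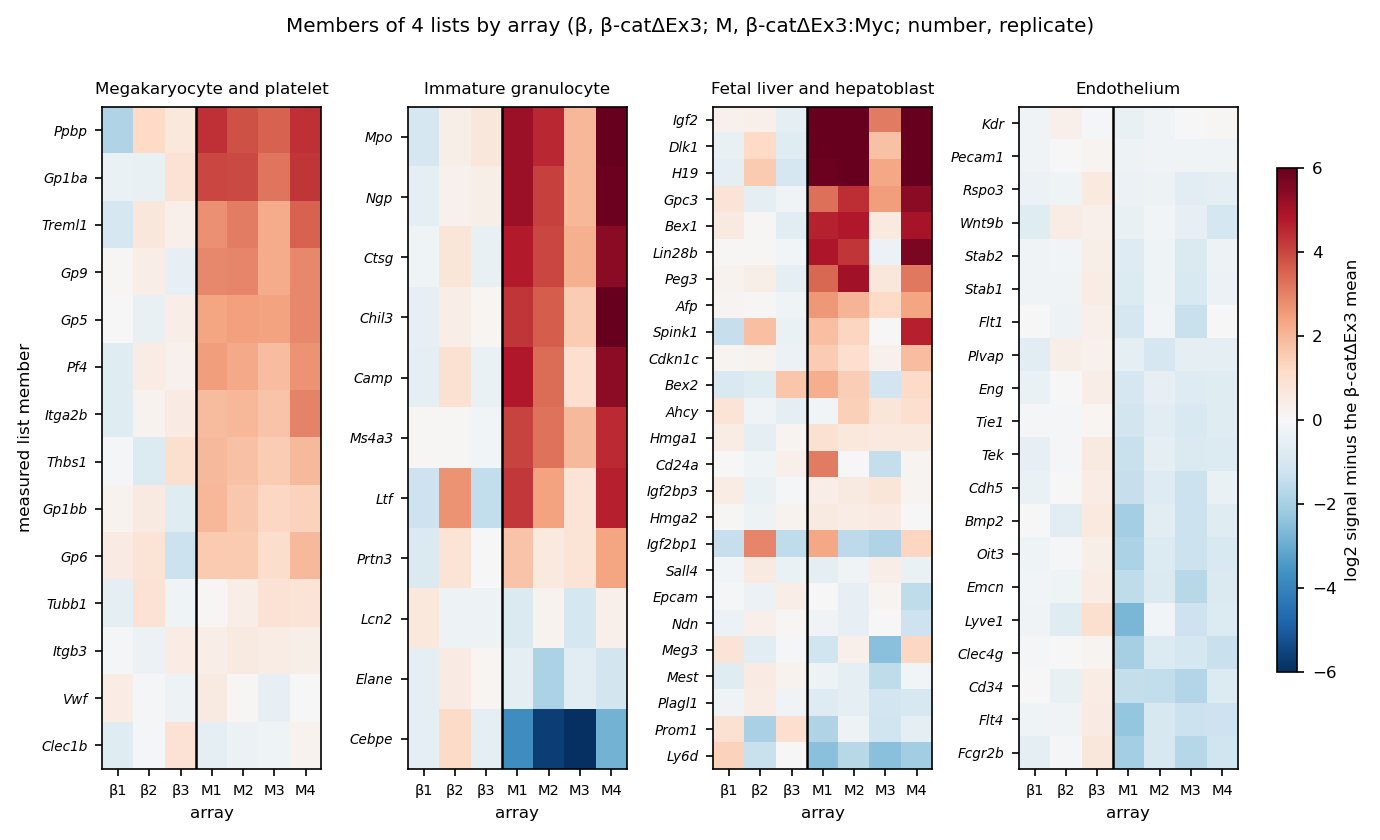
Level of the measured members of 4 lists (rows, 1 megakaryocyte gene not shown) on each array (columns), as log2 signal minus the mean of the 3 β-catΔEx3 arrays, with colours clipped at 6 in either direction. Most megakaryocyte and platelet genes are raised on all 4 Myc arrays, the granulocyte and fetal genes at the top of their panels are paler on M3 (replicate 3) than on the other Myc arrays, and most endothelial genes are pale blue on the Myc arrays.

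Genes of maturing granulocytes formed a second group of blood genes. Immature granulocytes pack their granules with proteins such as myeloperoxidase (Mpo) and cathepsin G (Ctsg) while they are still dividing. Of 11 measured members, 6 had groups apart with Myc higher and 1 with Myc lower (3.52% and 4.62% of all items), and none was called. The median difference was 3.44, or 3.03 with bounds. Mpo had levels of 1.55, 0.95, -1.58 and 2.84 against -4.60, -3.25 and -2.89, a difference of 4.52 ± 0.96 (adjusted p = 0.223). Ctsg had levels of 0.28, -0.46, -2.33 and 0.97 against -4.72, -3.75 and -4.93 (4.08 ± 0.74, adjusted p = 0.168). Replicate 3 was the lowest Myc array for both, though still above every β-catΔEx3 array.

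The same order held for Ms4a3, a membrane protein of granulocyte precursors, at -2.12, -2.93, -4.22 and -1.71 against -6.10, -6.12 and -6.33. It was at least 4.13-fold higher by its bound. Ngp, a granule protein, was at least 11.6-fold higher, and the antimicrobial peptide gene Camp differed by 3.62 ± 0.99. Ms4a3 and Ngp passed the background filter through the Myc arrays alone. Without replicate 3, Mpo, Ctsg, Ms4a3 and Ngp passed the test, with adjusted p-values of 0.04, 0.0241, 0.0196 and 0.0241. With slide as a block none of these 4 did (adjusted p = 0.0558, 0.0914, 0.0606 and 0.0558).

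Not every member ran that way. Cebpe, the transcription factor of the granule program, had levels of -1.5, -3.41, -4.12 and -0.61 against 1.68, 3.36 and 1.66, a difference of -4.65 ± 0.88 (adjusted p = 0.181). Elane, which encodes neutrophil elastase, overlapped between the groups (-1.07 ± 0.39). Among 9 measured genes of mature neutrophils, S100a8 and S100a9, the subunits of calprotectin, had groups apart, with differences of 3.47 ± 1.02 and 3.36 ± 0.96. Over all items, 3.52% were apart with Myc higher. The other 7 overlapped, and the list median was 0.50. The summed level of the immature granulocyte list overlapped between the groups, at 41.7 to 131 on the Myc arrays and 70.7 to 123 on the β-catΔEx3 arrays. That sum is weighted towards the brightest probes.

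Red cell genes were less uniform. Gata1, the transcription factor shared by the erythroid and megakaryocyte lineages, had levels of 1.63, -1.10, -2.54 and -0.18 against -5.06, -6.17 and -5.63. It was at least 18.9-fold higher (measured difference 5.07 ± 0.87, adjusted p = 0.163), and without replicate 3 it passed the test (adjusted p = 0.0486). Gata1 passed the background filter through the Myc arrays alone. Gfi1b, which works beside Gata1 in both lineages, was at least 8.41-fold higher and not called. The erythroid factor Klf1 had levels of 1.34, 0.31, 0.49 and 0.27 against -0.26, -1.77 and -1.07 (1.64 ± 0.41, adjusted p = 0.282). Gata1 and Klf1 were the only 2 of 13 measured erythroid genes whose groups did not overlap (3.52% of all items were apart with Myc higher). The list median was 1.01 over all arrays, 2.13 within slide 2 and 0.12 within slide 4, and the summed level, in which the globins dominate, ranged from 195 to 2180 on the Myc arrays and 249 to 698 on the others. The globin genes thus overlapped between the groups while Gata1 did not.

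Genes of the fetal liver held the widest differences of the comparison, in Igf2 and Dlk1. They include the imprinted growth genes Igf2, H19 and Dlk1, which the liver normally silences after birth, α-fetoprotein (Afp), the main serum protein of the fetus, and glypican-3 (Gpc3), a cell surface proteoglycan used as a marker of hepatoblastoma. Of 25 measured members, 9 had groups apart with Myc higher, against 3.52% of all items, and 2 with Myc lower, against 4.62%. None was called, and the median difference was 0.67. Igf2 had levels of 1.89, 2.72, -2.60 and 3.26 against -5.45, -5.41 and -6.24, with no β-catΔEx3 array above background. It was at least 68.9-fold higher (measured difference 7.02 ± 1.29, adjusted p = 0.173). Igf2 passed the background filter through the Myc arrays alone. Replicate 3 lay between the groups, nearer to β-catΔEx3 than to the other Myc arrays.

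H19, the non-coding RNA beside Igf2, had levels of 8.39, 8.81, 4.86 and 9.23 against 1.98, 4.10 and 1.5, and all 5 of its kept probes were higher (5.30 ± 1.11, adjusted p = 0.218). Dlk1, a membrane protein of hepatoblasts, had levels of 4.21, 2.93, -1.69 and 5.32 against -3.92, -2.27 and -4.17, with 1 β-catΔEx3 array above background (6.15 ± 1.53, adjusted p = 0.284). In both genes the 3 other Myc arrays stood far above, and replicate 3 only just above, the highest β-catΔEx3 array. For Afp replicate 3 was nearer its own group, with levels of 9.60, 9.04, 8.21 and 9.39 against 7.2, 7.09 and 6.73, a 4.15-fold difference (2.05 ± 0.34, adjusted p = 0.153).

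Gpc3 had levels of 1.37, 2.5, 0.60 and 3.50 against -1.12, -2.48 and -2.14 (3.90 ± 0.68, adjusted p = 0.163). Bex1, a small X-linked protein, had levels of 5.0, 5.19, 0.97 and 5.33 against 0.94, 0.46 and -0.25. Lin28b, the RNA-binding protein that blocks let-7 microRNAs, had levels of -1.27, -1.84, -6.50 and -0.47 against -6.07, -6.04 and -6.29. Lin28b was thus at background on replicate 3 and on all β-catΔEx3 arrays, and above it on the other 3 Myc arrays.

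Several of these genes were among the 40 items called when replicate 3 was left out. Without it Igf2 (adjusted p = 0.00587), Dlk1 (0.0241), H19 (0.0313), Lin28b (0.0103), Bex1 (0.0103) and Afp (0.0269) passed the test. Replicate 3 was the lowest Myc array for each of them, so leaving it out widened these differences. With slide as a block Igf2, Lin28b and Bex1 passed, each at adjusted p = 0.0463. Their differences in that fit, 8.33, 4.94 and 4.79, were those found without replicate 3. H19, Dlk1 and Afp did not pass with the block (adjusted p = 0.109, 0.0911 and 0.0777). The differences of Igf2 and Dlk1 were as large within slide 4 as within slide 2: for Igf2 9.50 and 7.74, for Dlk1 9.49 and 6.67. The summed level of the 25 genes was 1330 to 1720 on Myc replicates 1, 2 and 4, 522 on replicate 3, and 317 to 699 on the β-catΔEx3 arrays.

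The list did not move as a whole. Ly6d, a surface marker of immature cells, had levels of 4.32, 5.13, 4.32 and 4.73 against 8.19, 5.45 and 6.78 (-2.18 ± 0.58), and the imprinted transcription factor Plagl1 differed by -0.87 ± 0.24. Neither was called.

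Igf1 had levels of 2.81, 3.01, 2.79 and 2.34 on the Myc arrays, against 4.53, 4.67 and 4.73 on the β-catΔEx3 arrays. Both groups were tight, and replicate 3 lay in the middle of its own. Igf1 was 3.75-fold lower in β-catΔEx3:Myc (difference -1.91 ± 0.20, adjusted p = 0.0377), and all 4 of its kept probes were lower. With slide as a block the difference was -1.93 and the adjusted p 0.109. Igf1 was not called when a gene's probes were averaged, with the authors' matrix or with no filter on dim probes. When single arrays were left out, it was called only without Myc replicate 3. Of the 16 measured genes of the growth hormone and IGF axis, Igf1 was the only one called, where 0.0141% of all items were called lower. Igfals, which keeps Igf1 in the circulation, had levels of -1.44, -2.05, -1.52 and -1.15 against -0.76, 0.55 and 0.00 (-1.47 ± 0.34, adjusted p = 0.262). The growth hormone receptor Ghr differed by -0.59 ± 0.23, and Igfbp2, a binding protein abundant in the fetus, by 2.28 ± 0.57, with groups apart in both. In the list, 1 gene had groups apart with Myc higher and 3 with Myc lower, against 3.52% and 4.62% of all items. The median of the 16 was 0.00, and the receptor's signal carriers Jak2, Stat5a and Stat5b overlapped between the groups.

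Serpina3i had the smallest adjusted p of all items. Its level was -2.27, -2.72, -2.93 and -2.21 on the Myc arrays, against 1.46, 1.28 and 0.87 on the β-catΔEx3 arrays, and it was 13.3-fold lower (difference -3.73 ± 0.25, adjusted p = 0.0121). It was called in 6 of the 7 fits that left out 1 array, the exception being that without Myc replicate 2 (0.0778), and also with slide as a block (-3.60, adjusted p = 0.0463). The Serpina3 cluster on chromosome 12 holds close copies, so a probe may share signal with a neighbour. Of 9 measured Serpina3 genes, 4 had groups apart, all with Myc lower (4.62% of all items were), and 5 overlapped. Serpina3k had levels of 5.96, 6.4, 6.44 and 5.97 against 7.64, 7.57 and 7.95 (-1.53 ± 0.20, adjusted p = 0.111). Serpina3h differed by -1.65 ± 0.22 and Serpina3f by -2.63 ± 0.59, neither of them called.

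Serpina3 genes belong to the wider acute phase response, in which the liver secretes defence proteins. The 24 measured acute phase genes were split, with 3 apart with Myc higher and 3 lower (3.52% and 4.62% of all items), and a median of 0.10. The 3 lower ones were the orosomucoid genes Orm1, Orm2 and Orm3, which encode a serum carrier protein. Orm1 had levels of 5.0, 4.22, 4.27 and 4.06 against 5.71, 5.78 and 5.84 (-1.39 ± 0.25, adjusted p = 0.163), and Orm2 and Orm3 differed by -1.60 ± 0.29 and -1.58 ± 0.25. The orosomucoid genes are near-copies of each other and their probes may share signal. Saa3, a serum amyloid made outside hepatocytes as well, had levels of 3.91, 1.28, -0.08 and 1.59 against -1.45, -1.05 and -2.12 (3.21 ± 0.83, adjusted p = 0.311). The acute phase genes therefore had no common direction.

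Slc28a1 had levels of 2.53, 2.51, 2.69 and 2.18 against 4.26, 4.46 and 4.14, with both groups within narrow bands. It was 3.50-fold lower in β-catΔEx3:Myc (-1.81 ± 0.19, adjusted p = 0.0374). With slide as a block its adjusted p was 0.0606. When single arrays were left out, it was called only without Myc replicate 3. Zfp949 had levels of 2.22, 2.17, 1.56 and 1.82 against -0.86, -1.46 and -1.17, and both of its kept probes were higher. It was 8.60-fold higher (3.10 ± 0.24, adjusted p = 0.0163). The unnamed locus is given by the array as chr9:88437245-88465751, with mm9 as the build in the file headers. Zfp949 lies on the same chromosome, with the 250 bases before its start at chr9:88547770-88548019 on GRCm38.p6. Positions were not converted between the builds, and whether the locus and Zfp949 report the same transcript was not tested. They may therefore not be separate calls. The locus had levels of -0.70, -0.06, -0.79 and -0.47 against -3.70, -3.24 and -3.11, a 7.18-fold difference (2.84 ± 0.24, adjusted p = 0.0209). Zfp949 and the locus thus shared both their direction and their tight groups.

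Among Wnt genes the largest difference was in a secreted inhibitor. Wif1, which binds Wnt ligands outside the cell, had levels of -1.43, 1.82, 0.85 and 1.36 against -3.62, -6.35 and -4.39, with 1 of the 3 β-catΔEx3 arrays above background. The groups were far apart, replicate 3 stood with its own, and the difference of 5.44 ± 0.89 was not called (adjusted p = 0.153). Within slide 2 it was 5.18 and within slide 4 it was 5.75. The other 11 measured Wnt feedback targets overlapped between the groups, and the list median was 0.05. Of 17 perivenous hepatocyte genes, many of which depend on Wnt signals, only Rnase4 had groups apart (1.06 ± 0.27), and the median was -0.07. Of all items, 3.52% were apart with Myc higher.

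Markers of the cells that line and support the liver's vessels were on the low side. All 20 measured endothelial genes had a lower mean in β-catΔEx3:Myc, as did 10650 of all items, with differences between -1.47 and -0.13 and a median of -0.86. Vwf, which endothelium also makes, stood in the platelet list and is not among the 20 (0.04 ± 0.29). In 14 of the 20 the groups were apart, as in 4.62% of all items with Myc lower. None was called, where 0.0141% of all items were called lower, and 19 were lower within both shared slides, as were 31.3% of all items. Cd34, a surface protein of capillaries, had levels of 0.00, -0.04, -0.33 and 0.64 against 1.43, 0.99 and 1.90 (-1.38 ± 0.30, adjusted p = 0.226). Tie1, a receptor of vessel cells, had levels of -2.29, -1.88, -2.12 and -1.92 against -1.27, -1.28 and -1.07 (-0.84 ± 0.17, adjusted p = 0.216). The receptors Flt4 and Fcgr2b of sinusoidal endothelium differed by -1.45 ± 0.36 and -1.47 ± 0.36. The differences were modest in size, but replicate 3 shared them.

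The 22 measured genes of stellate cells and matrix also all had a lower mean, with a median of -0.81 and 9 with groups apart, again against 4.62% of all items. Lum and Dcn, which encode proteoglycans of the collagen matrix, differed by -1.37 ± 0.26 (adjusted p = 0.179) and -1.01 ± 0.26 (adjusted p = 0.291). Col1a2, a chain of type I collagen, had levels of 3.09, 2.18, 3.09 and 2.58 against 3.71, 4.15 and 3.55 (-1.07 ± 0.28, adjusted p = 0.318). The summed level of the endothelial list was 49.3 to 75.3 on the Myc arrays and 93.2 to 129 on the β-catΔEx3 arrays, and that of the stellate and matrix list 127 to 167 and 233 to 301, with no marker of either list below background on all arrays of a group. Igf1 is also made outside hepatocytes, and the part of these cell types in its call was not tested. The macrophage list had 17 measured members, 1 with groups apart and Myc lower (4.62% of all items). Its median was -0.39, and its summed levels overlapped (41 to 115 against 67.1 to 131).

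Ribosome biogenesis is among the growth programs that Myc is known for. Of its 35 measured genes, none was called, where 0.0282% of all items were called higher and 0.0141% lower. In 3 the groups were apart with Myc lower, against 4.62% of all items, and the median was -0.06, with differences between -0.59 and 0.31. Mrto4, a ribosome assembly factor, had the smallest p among them, with levels of 3.48, 3.63, 3.59 and 3.84 against 3.88, 3.97 and 4.06 (-0.34 ± 0.16, adjusted p = 0.647). All 25 cytosolic ribosomal protein genes had a higher mean in β-catΔEx3:Myc, as did 10660 of the 21310 items, but by a median of 0.16, and in none of them were the groups apart. Scaling the arrays to their median in place of the 75th percentile moved the median of all items by -0.12. Within the Myc network, Mxd1, which competes with Myc for Max, had levels of 0.75, 0.46, 0.62 and 0.69 against -0.04, -0.25 and -0.14, a 1.71-fold difference that was not called (0.77 ± 0.16, adjusted p = 0.212). Mycl, a relative of Myc, was well above background on all 4 Myc arrays and on no β-catΔEx3 array, at least 2.86-fold by its bound, with overlapping values.

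Cell division genes differed between livers of the same group. All 22 measured mitosis genes had a higher mean in β-catΔEx3:Myc, as did 10660 of the 21310 items. The groups overlapped in each, where 3.52% of all items were apart with Myc higher. Mki67, a protein of dividing cells, had levels of 3.82, 1.26, 1.12 and 3.27 against 1.19, 2.77 and 0.94 (0.74 ± 0.78). Myc replicates 1 and 4 and β-catΔEx3 replicate 2 were the high arrays. The median of the list was -0.40 within slide 2, 2.54 within slide 4 and 0.39 over all arrays. The interferon response list showed a like split, with medians of -0.11 and 1.57 within the 2 slides, and the cholesterol synthesis list the opposite one, with 0.35 and -1.23.

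**Figure D3:**
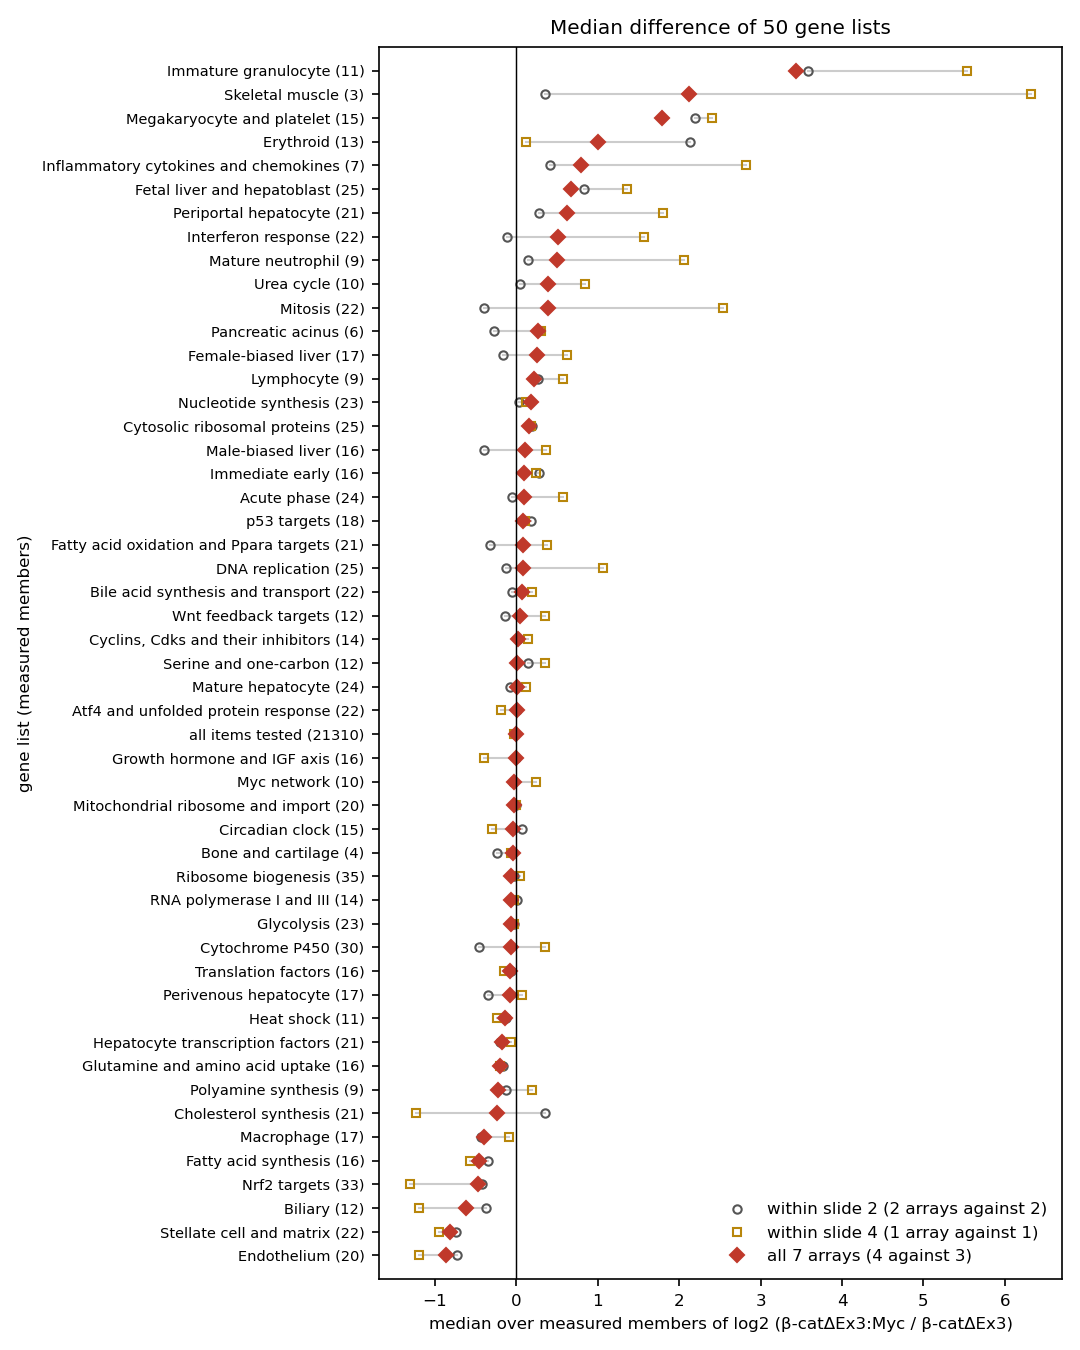
Median over the measured members of each gene list of the log2 difference between β-catΔEx3:Myc and β-catΔEx3 (horizontal axis), for all 7 arrays (red diamonds), within slide 2 (open circles) and within slide 4 (open squares), with the number of measured members in brackets. The megakaryocyte, granulocyte and fetal lists lie right of 0 and the endothelial and stellate lists left of 0 in all 3, while mitosis, interferon and cholesterol synthesis switch sides between the slides.

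Most Nrf2 targets and fatty acid synthesis genes had a lower mean in β-catΔEx3:Myc. Of 33 Nrf2 targets, which make glutathione and its transferases, 32 had a lower mean in β-catΔEx3:Myc, as did 10650 of the 21310 items. In 1 the groups were apart with Myc lower, against 4.62% of all items. The median was -0.47 over all arrays, -0.42 within slide 2 and -1.30 within slide 4. Their summed level overlapped between the groups, at 4800 to 9780 on the Myc arrays and 9240 to 10100 on the β-catΔEx3 arrays. Within both shared slides 29 of the 33 were lower, as were 31.3% of all items. The cystine transporter Slc7a11 had levels of 1.12, 1.08, 2.46 and -4.11 against 2.52, 1.59 and 2.64, with replicate 4 far below the other 6 arrays. Of 16 fatty acid synthesis genes 15 had a lower mean, with a median of -0.45, and 2 had groups apart with Myc lower (4.62% of all items). Periportal hepatocyte genes leaned the other way, with 18 of 21 means higher, as were 10660 of all items, and a median of 0.63. In 1 of the 21 the groups were apart with Myc higher, against 3.52% of all items. The starvation hormone Fgf21 had groups apart with Myc lower (-3.56 ± 1.30).

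Outside the lists, other genes also had groups apart, which by itself sets the same direction within both shared slides. S100g, a calcium-binding protein, had levels of 4.40, 3.82, 1.57 and 4.66 against -0.25, 0.41 and -0.56 (3.74 ± 0.71, adjusted p = 0.181). Hsd3b1, an enzyme of steroid synthesis, was at least 10.6-fold higher by its bound. On the lower side, Mettl17, a mitochondrial methyltransferase, had levels of -4.34, -5.51, -4.16 and -5.32 against -1.18, -0.82 and -1.83, and was at least 7.52-fold lower (measured difference -3.56 ± 0.41), just short of the threshold at adjusted p = 0.0517. Fgl2, a fibrinogen-like enzyme of endothelium and macrophages, was at least 4.90-fold lower (adjusted p = 0.134). Mme, a membrane peptidase, differed by -3.40 ± 0.60 and was above background on 1 of 4 Myc arrays and all 3 β-catΔEx3 arrays. Themis, known from T cells, differed by -3.41 ± 0.58.

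Over all items, 244 had groups apart and at least 2-fold higher in β-catΔEx3:Myc (1.15%) and 298 at least 2-fold lower (1.40%). Across the 21310 items, which are not independent of each other, the difference within slide 2 and that within slide 4 had a Pearson r of 0.39, and these come from different livers. The median absolute difference was 0.236 within slide 2 and 0.347 within slide 4. Of all items, 28.0% were higher and 31.3% lower within both. Igf2, Dlk1, Mpo and Gp1ba were among the items with large positive differences in both.

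**Figure D4:**
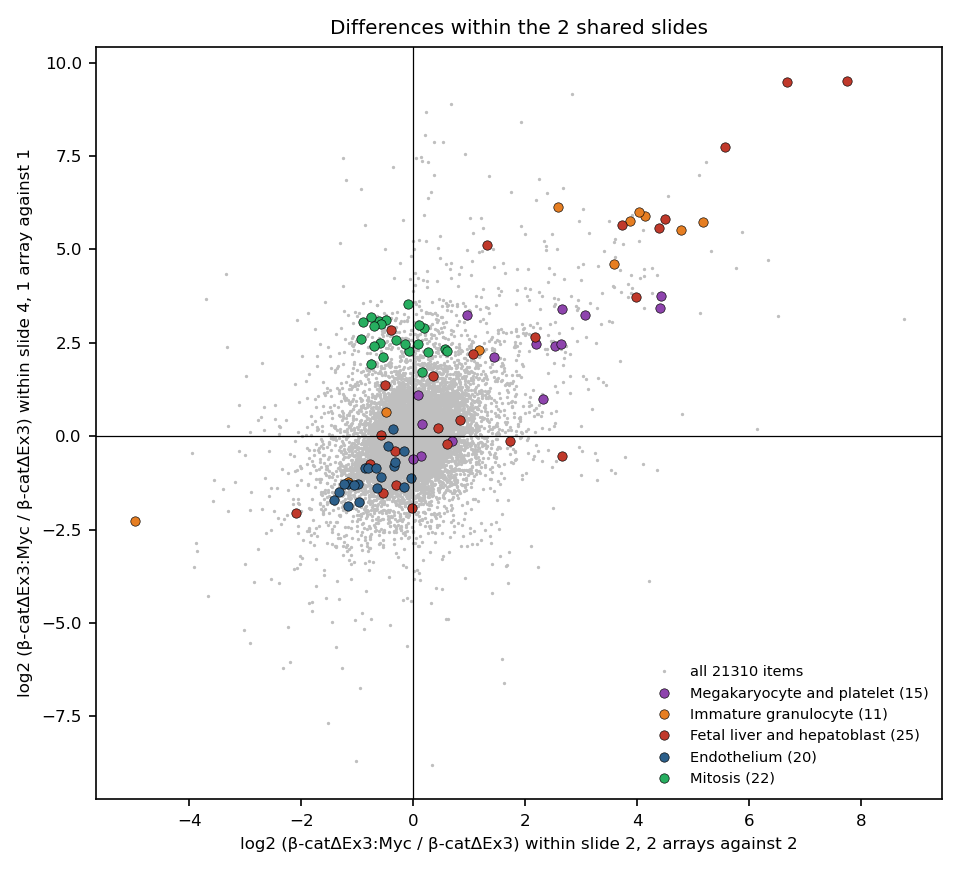
Log2 difference between β-catΔEx3:Myc and β-catΔEx3 within slide 2 (horizontal axis, 2 arrays against 2) and within slide 4 (vertical axis, 1 array against 1) for all 21310 items (grey) and the members of 5 lists (coloured). Igf2 lies at the upper right with 7.74 and 9.50, most endothelial genes at the lower left, and the mitosis genes high within slide 4 but around 0 within slide 2.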

How the data were processed

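Total liver RNA was measured on 1-colour Agilent arrays. Per the file headers, the authors read them with Agilent Feature Extraction 10.7.1.1, and the deposited files hold background-subtracted processed intensity on a linear scale. A matrix of log2 values, which the authors deposited with the same median (4.51) on every array, served only as an alternative.

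Outlier spots (137 to 209 of 59305 per array) were left out, spots of a probe were averaged on the log2 scale, and each array was scaled to its 75th percentile. Probes well above background on at least 3 of the 7 arrays were kept (28257 of 55681). Symbols came from RefSeq gene names (GRCm38.p6) by accession, for 26582 probes. The brightest probe stood for a gene. Of 3355 genes with several kept probes, 925 had probes of both signs. limma 3.58.1 in R 4.3.3 fitted the 2 group means (residual degrees of freedom 5, prior 2.68). Tests were 2-sided, with Benjamini-Hochberg adjustment and a threshold of 0.05. The script was tested on simulated data.

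The members and the 50 gene lists (972 entries, 947 with a probe) were chosen with earlier results of these data known. The naming rule took every called gene, the 15 highest and 15 lowest uncalled genes whose groups were apart with that direction within both slides, up to 3 called members of each list or else the 2 with the smallest p, and Myc, Ctnnb1 and Nfe2l2. Other list members, and the choice among these, were named after their values were seen. Alternatives changed the background correction, scaling, filter, choice of probe, slide, arrays and variance model. Values of 2 list members are not reported here.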

Additional observations from a re-analysis of the deposited data

Results flagged for a closer look

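In 5 of the genes named here, 1 of the 4 β-catΔEx3:Myc arrays lay far from the other 3, by a gap past Dixon's critical value. Chance gives such a gap in about 1 in 20 groups, and 83 items were examined. Replicate 3 was the low array in 3 of them: Gp9 at -0.60, with the nearest array at 0.07, Bex1 at 0.97, with the nearest at 5.0, and Atp8a2, a phospholipid transporter, at -4.75, with the nearest at -1.21. Orm2 was high on replicate 1, at 5.61 against 4.75. The skeletal muscle troponin Tnni2 was high on replicate 4, at 5.57, with the nearest array at -2.09, and the summed level of the 3 measured skeletal muscle genes was 74.9 on that array and 0.43 to 1.56 on the other 6.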

How the results depend on the processing

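The counts of called items, 6 higher and 3 lower, moved with the processing. The count of higher items was 2 with normexp background correction of the median signal (chosen after the files were seen, because the mean signal is not among their columns), 3 with the authors' matrix, 3 with no filter on dim probes, 0 with slide 2 only (1075 items at an unadjusted p under 0.05) and 31 with all 11 arrays in the fit. The count of lower items was 5 with median scaling, 1 with the authors' matrix, 1 with no filter, 5 with the filter on every array of a group, 1 with slide as a fixed block, 5 with slide as a random block, 0 with slide 2 only and 48 with all 11 arrays. Leaving out 1 array gave 0 to 35 higher and 0 to 5 lower. The cause was not tested. All 9 called items kept their direction in every alternative run. Where the groups do not overlap, leaving out arrays cannot change it. In all, 83 named items gave 1658 values under alternatives, of which 1528 kept direction and side of the threshold, 77 lost a call, 41 gained one and 12 changed sign. The last were all small. Ctnnb1 was 0.01 with normexp, 0.04 with the percentile over probes above background on all arrays, 0.03 with quantile normalization, 0.03 with the authors' matrix, 0.13 with slide 2 only, and -0.07 to 0.07 without single arrays. Vwf was -0.08 with median scaling and -0.13 to 0.26 without single arrays, and Nfe2l2 was -0.32 to 0.04 without single arrays. With 4 and 3 arrays, the number of arrays limits the precision, and genes near background have only bounds. No paired analysis was possible because the replicate numbers come from the order of the samples and the labels carry no shared number.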

Other observations

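Genes of the Gimap family, small GTPases of lymphocytes that endothelium also makes, were not on any list. Gimap4 had levels of -0.20, -0.14, -0.29 and 0.20 on the β-catΔEx3:Myc arrays against 1.04, 1.2 and 1.38 on the β-catΔEx3 arrays, and all 3 of its kept probes were lower (-1.31 ± 0.19, limma adjusted p = 0.117). Gimap5 differed by -1.32 ± 0.21 (adjusted p = 0.153). Bex3, a relative of Bex1, had levels of 3.27, 2.70, 1.55 and 3.10 against -0.07, 0.72 and -0.33 (2.55 ± 0.45, adjusted p = 0.163), and without replicate 3 it passed the test (adjusted p = 0.0343). Atp8a2 was well above background on 3 of the 4 Myc arrays and on 0 β-catΔEx3 arrays, so its fold has no firm bound. Its measured difference was 4.22 ± 0.97 (adjusted p = 0.257). With slide as a block Atp8a2 had the smallest adjusted p of all items (0.0142). These genes were picked out after their values were seen.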
